A study of Caenorhabditis elegans with 2 samples.

Results

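Molecular chaperones help other proteins to reach and keep their folded shape. The members described here are the 59 protein-coding genes of Caenorhabditis elegans, of 19973 on the nuclear chromosomes, whose symbols begin with hsp, dnj or cct followed by a number. The symbol alone decides which genes belong, but this set of names was proposed with results of these data in view. They fall into 8 subunits of the CCT chaperonin, 6 genes of the Hsp70 and Hsp110 families, 3 of the Hsp90 and Hsp60 families, 13 small heat shock genes and 29 dnj genes, which encode J-domain proteins. A separate list of 26 chaperones with other symbols, cochaperones and regulators of the heat shock response is described further on.

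The data are peak lists from chromatin immunoprecipitation followed by sequencing (ChIP-seq) of SPTF-2, a zinc finger protein of the Sp family. Both samples were whole young adult worms of strain OP769, aged 64.5 h, with the mutation unc-119(tm4063) and the transgene wgls769, which holds sptf-2::TY1::EGFP::3xFLAG and unc-119(+) as the rescuing marker. The worms were synchronised by bleaching and starving them as L1 larvae, are labelled as pooled male and female, and gave 2 biological replicates of 1 group, precipitated through the GFP tag. There was no second condition, so the question the lists can answer here is where the tagged protein was found at chaperone genes and how alike the 2 replicates were.

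Pooled whole animals do not show in which cells a gene was bound, and the tagged protein came from a transgene. All lists were made against a control alignment, per the deposited file descriptions, and an untagged strain's list was not used here. Each replicate list and the pooled list held 30000 peaks, and the optimal list, thresholded by the submitters on the agreement of ranks between replicates, held 407, which were the 407 strongest pooled peaks. The highest q value in the optimal list was 0.0350, whereas the pooled peaks at ranks 1000, 3000 and 10000 had q values of 0.0765, 0.299 and 0.650. Read totals were not used here, so the depth behind each peak is unknown. Ranks count from 1 for the highest signal value, which is the submitters' score for a peak on the caller's own scale, and signal values are read only within a list.

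Cytosolic Hsp70 proteins bind short hydrophobic stretches of unfolded clients, J-domain proteins deliver clients and speed up ATP hydrolysis by Hsp70, and Hsp110 proteins exchange the nucleotide. Hsp90 acts late on clients such as kinases and receptors, the ring-shaped CCT chaperonin folds actin and tubulin, Hsp60 serves the mitochondrial matrix, and small heat shock proteins hold unfolded proteins without ATP. In C. elegans the transcription factor HSF-1 raises many of these genes through heat shock elements in their promoters, while mammalian Sp factors are known for binding GC boxes.

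A gene was counted at a summit when the peak's summit, its point of highest signal, lay within 500 bp of any annotated start of the gene. Of the members, 5 of 59 (8.47%) were at an optimal summit, against 0.936% of all protein-coding genes. They were the Hsp110 gene hsp-110, the endoplasmic reticulum Hsp70 gene hsp-3, the CCT subunit genes cct-7 and cct-8, and the Hsp90 gene hsp-90. The 201 bases around the strongest pooled summit of each, read along the gene's strand from the RefSeq sequence of the same assembly (ce11), are shown because they are the stretches the rest of the account turns on. Capitals mark a CACC box (CACCC) or a heat shock element arrangement (GAANNTTC or TTCNNGAA, where N is any base).
hsp-110, III:8446677-8446877, minus strand: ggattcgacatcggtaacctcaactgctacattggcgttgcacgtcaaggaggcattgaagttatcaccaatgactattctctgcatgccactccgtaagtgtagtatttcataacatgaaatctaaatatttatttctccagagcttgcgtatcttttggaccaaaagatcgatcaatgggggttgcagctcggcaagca
hsp-3, X:6092060-6092260, minus strand: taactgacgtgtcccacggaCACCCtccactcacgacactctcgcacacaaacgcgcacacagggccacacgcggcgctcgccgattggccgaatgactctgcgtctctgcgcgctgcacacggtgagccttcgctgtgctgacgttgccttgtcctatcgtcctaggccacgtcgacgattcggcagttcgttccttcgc
cct-7, V:1871952-1872152, plus strand: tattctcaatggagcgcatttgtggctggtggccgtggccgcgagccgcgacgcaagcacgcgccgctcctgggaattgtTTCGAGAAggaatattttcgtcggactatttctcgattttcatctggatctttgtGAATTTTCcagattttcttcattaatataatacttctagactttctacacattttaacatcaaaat
hsp-90, V:14686167-14686367, plus strand: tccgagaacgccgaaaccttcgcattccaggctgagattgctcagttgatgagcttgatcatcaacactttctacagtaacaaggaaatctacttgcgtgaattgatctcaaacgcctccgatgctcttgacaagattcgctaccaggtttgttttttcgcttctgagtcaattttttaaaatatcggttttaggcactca
cct-8, IV:1094239-1094439, minus strand: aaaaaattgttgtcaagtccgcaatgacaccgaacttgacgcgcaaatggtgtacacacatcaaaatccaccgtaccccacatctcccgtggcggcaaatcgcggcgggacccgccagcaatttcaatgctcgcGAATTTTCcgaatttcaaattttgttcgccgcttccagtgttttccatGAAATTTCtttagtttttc
The 5 stretches differ in kind. The hsp-3 stretch lies across the start of the gene, has 62.2% G and C, and holds a CACC box at its base 21. The cct-7 and cct-8 stretches centre on intergenic summits before the genes and each hold a pair of heat shock element arrangements, at bases 81 and 136 in cct-7 and at bases 135 and 183 in cct-8. The hsp-110 and hsp-90 stretches lie inside the genes and have no capitals, since none of the motifs searched was present.

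Among the members with roles in the Hsp70 cycle, hsp-110 (WBGene00016250) had the strongest summit, in a peak at III:8446589-8446964 with its summit 132 bp after the start, in an intron. Its pooled signal was 128.3 at rank 101. Replicate 1 had it at rank 63 with a signal of 82.3, and replicate 2 at rank 191 with a signal of 54.3. Those summits of the replicates lay 28 bp apart. Outside the window replicate 2 had a stronger summit in hsp-110, at rank 89 (signal 64.0), 881 bp after the start. The pooled list had further summits in the gene, 946 bp (rank 1384) and 2450 bp (rank 1683) after the start. The endoplasmic reticulum gene hsp-3 (WBGene00002007), which encodes a BiP protein, had a peak at X:6091972-6092347 with its summit 36 bp before the start. Its pooled signal was 108.1 at rank 196, with rank 279 in replicate 1 and rank 304 in replicate 2, and replicate summits 20 bp apart. These are the members that were among the 407 strongest peaks of both replicate lists, 2 of 59, against 0.345% of all protein-coding genes.

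The constitutive cytosolic Hsp70 gene hsp-1 (WBGene00002005) missed the optimal list narrowly. Its pooled summit at IV:17279260-17279635 had a signal of 87.6 at rank 471 and lay 489 bp after the start, in a coding exon. The replicates placed their strongest summit at hsp-1 differently, at rank 1148 and 19 bp after the start in replicate 1 and at rank 237 and 472 bp after it in replicate 2. The mitochondrial Hsp70 gene hsp-6 (WBGene00002010) had a pooled rank of 2677 and a signal of 59.3, with the summit 79 bp before the start. It ranked 217 in replicate 2, 152 bp after the start, but 2250 in replicate 1, 400 bp before it. So both genes had strong summits in replicate 2 at positions that the strongest summit of replicate 1 did not share.

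The remaining members of the family, hsp-4 and hsp-70, were lowest in the pooled list, though hsp-70 was close behind hsp-6. The inducible BiP gene hsp-4, a target of the unfolded protein response, had rank 3775 (signal 55.0, 375 bp after one of its starts), with rank 1410 in replicate 1 and rank 4048 in replicate 2. The inducible cytosolic gene hsp-70 had rank 2806 (signal 58.7, 451 bp after the start), with rank 3497 in replicate 1 and rank 2494 in replicate 2. All 6 Hsp70 and Hsp110 genes had a summit in the pooled list and in both replicate lists. Over all protein-coding genes the shares were 36.9% and 21.1%. Among the 3000 strongest pooled peaks were 5 of 6, against 5.57%. Replicate summits lay within 100 bp of each other for 2 of 6, hsp-110 and hsp-3, against 42.2% of all protein-coding genes in both lists. The median gap was 307 bp, against 140 bp. Of their pooled summits, 4 of 6 lay after the start and 3 of 6 in coding exons. Over all protein-coding genes with a pooled summit, 3700 of 7365 lay after the start and 33.7% in coding exons. Beside those shares, such position counts say little.

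The CCT subunits gave a different picture. Of the 8 genes, 2 (25%) were at an optimal summit, 5 (62.5%) were among the 3000 strongest pooled peaks and 6 (75%) had a pooled summit. Over all protein-coding genes these shares were 0.936%, 5.57% and 36.9%. The strongest was cct-7 (WBGene00020391), with a peak at V:1871864-1872239, a signal of 98.9 at rank 271, rank 738 in replicate 1 and rank 342 in replicate 2, and its summit 194 bp before the start. The next was cct-8 (WBGene00021934), with a peak at IV:1094151-1094526, a signal of 92.3 at rank 371, rank 362 in replicate 1 and rank 715 in replicate 2, and its summit 419 bp before the start. Thus each was among the 407 strongest peaks of 1 replicate list and outside them, though among the 1000 strongest, in the other.

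Further down, cct-1 had rank 1331 (signal 69.4, 199 bp before the start), with rank 3420 in replicate 1 and rank 2482 in replicate 2. The cct-6 summit had rank 1740 (signal 65.5, 157 bp before the start), with rank 1515 in replicate 1 and rank 4987 in replicate 2. The cct-5 summit had rank 2755 (signal 59.0, 433 bp before the start), with rank 821 in replicate 1 and rank 1536 in replicate 2. The one subunit whose summit lay after the start was cct-4, at rank 3696 (signal 55.2, 116 bp after the start, in an intron), with rank 2831 in replicate 1 and rank 15347 in replicate 2. No pooled summit was within the window for cct-2, which had a summit in replicate 2 alone (rank 9972), and cct-3 had none in any list. The subunits are made for 1 complex, but their ranks in the pooled list ranged from 271 to 3696 among the 6 with a summit.

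Position differed between the classes, as a description. The strongest pooled summit was intergenic for 5 of 6, compared with 45.7% of the 35 members with a pooled summit and 35.1% of all protein-coding genes with one. The same 5, cct-1, cct-5, cct-6, cct-7 and cct-8, had the start of another protein-coding gene within 500 bp of the summit, compared with 22.9% of the members and 15.2% of all protein-coding genes with a pooled summit. The neighbours were T10B5.4 at cct-7 (245 bp from the summit), Y55F3AR.2 at cct-8 (202 bp), the Dishevelled gene mig-5 at cct-1 (221 bp), the aldehyde dehydrogenase gene alh-9 at cct-6 (174 bp) and F25F2.1 at cct-5 (308 bp). Since 1 summit serves both starts, the lists cannot say which gene of such a pair the binding belongs to. The replicates agreed on position here, with summits within 100 bp of each other for 5 of 6 subunits and a median gap of 16.5 bp, compared with 36.7% of the 30 members in both replicate lists and 42.2% of all protein-coding genes in both. The exception was cct-5, with a gap of 466 bp.

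In the Hsp90 and Hsp60 families the count depended on the choice of start for hsp-90 and on the width of the window for hsp-60. The cytosolic gene hsp-90 (WBGene00000915), known as daf-21, had its optimal peak at V:14686079-14686454, with a signal of 96.0 at rank 320, in a coding exon 107 bp after the second of its 2 annotated starts. Replicate 1 had this summit at rank 45, the strongest rank within the window of any member in a replicate list. The strongest summit of replicate 2 near a start of the gene had rank 610 and lay 144 bp before the second start, 252 bp from that of replicate 1. With only the most upstream start of each gene, hsp-90 was no longer counted. At the mitochondrial chaperonin gene hsp-60, a strong optimal peak (III:1618945-1619320, signal 119.5, rank 129) had its summit 609 bp before the most upstream start, outside the window, with ranks of 511 in replicate 1 and 74 in replicate 2. Inside the window hsp-60 had a summit of rank 29283 only. The TRAP1-type gene hsp-75 had no summit in the window in any list.

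Among the summits nearest to the edge of the window, those just inside it included hsp-70 at 451 bp and hsp-1 at 489 bp. Just outside it were a second cct-1 summit at 546 bp (rank 1325), a dnj-20 summit at 508 bp (rank 4924) and the hsp-60 summit at 609 bp.

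The J-domain genes had no optimal summit, 0 of 29. The share over all protein-coding genes was 0.936%, so a count of 0 among 29 says little. A pooled summit was found for 14 of 29 (48.3%), against 36.9% of all protein-coding genes. Among the 3000 strongest pooled peaks were 5 of 29 (17.2%), against 5.57%. The strongest were dnj-20 at rank 804 (signal 77.7), dnj-12 at rank 972 (signal 74.4), dnj-24 at rank 1187 (signal 71.3), dnj-9 at rank 1262 (signal 70.2) and dnj-19 at rank 1810 (signal 64.8), which are the 5 of 29 among the 3000 strongest pooled peaks. DNJ-12 and DNJ-19 are class A J-domain proteins of the cytosol that act with Hsp70 on aggregated clients. In replicate 1 the ranks were 2038 for dnj-20, 2283 for dnj-12, 1584 for dnj-24, 2739 for dnj-9 and 2910 for dnj-19. In replicate 2 they were 479 for dnj-20, 593 for dnj-12, 10359 for dnj-24, 3308 for dnj-9 and 4416 for dnj-19, so dnj-20 and dnj-12 stood higher in replicate 2 and dnj-24 far lower. The dnj-9 summits of the replicates were 1 bp apart although neither rank was high. The dnj-19 summit had the start of the nuclear receptor gene nhr-47 41 bp away.

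The class B gene dnj-13, whose product works with Hsp110 and Hsp70 in disaggregation, was at rank 307 in replicate 2 (468 bp after the start) and rank 4917 in replicate 1 (161 bp before it), with no pooled summit in the window. Its nearest pooled summit lay 719 bp before the start at rank 1818. Of the dnj genes, 10 of 29 had no summit in the window in any list. The share was larger over all protein-coding genes, 9153 of 19973.

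The small heat shock genes mostly had weak summits. A pooled summit was found for 7 of 13 (53.8%), against 36.9% of all protein-coding genes. Their median rank was 20703, against 12333 for all protein-coding genes with a pooled summit. None of 13 was at an optimal summit, which says little beside a share of 0.936% over all protein-coding genes. Among the 10000 strongest pooled peaks was 1 of 13 (7.69%), against 15.7%. The exception was hsp-43 on X, at rank 676 (signal 80.6, 239 bp after a start, in an intron), which had rank 574 in replicate 1 but rank 8348 in replicate 2. The next was hsp-25 at rank 11123 (signal 41.3).

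The hsp-16 genes are the classical heat-inducible genes of the worm. Of the 6, hsp-16.2 alone had a pooled summit, against 36.9% of all protein-coding genes, so the count says little. That summit was at rank 24488 (signal 30.7, 410 bp after a start), with rank 11501 in replicate 1 and none in replicate 2. For 4 of them, the 2 copies each of hsp-16.1 and hsp-16.48, every 50-base stretch within 500 bp of the start occurred elsewhere in the genome too, so reads of that length could not be placed uniquely and their lack of summits is uncertain. For hsp-16.2 and hsp-16.41 none did. The start region of hsp-16.2, from 250 bases before the most upstream start to 50 bases from it, is shown because it holds the heat shock element arrangements in their textbook form, in capitals where GAANNTTC and TTCNNGAA overlap.
hsp-16.2, V:1804908-1805207, minus strand: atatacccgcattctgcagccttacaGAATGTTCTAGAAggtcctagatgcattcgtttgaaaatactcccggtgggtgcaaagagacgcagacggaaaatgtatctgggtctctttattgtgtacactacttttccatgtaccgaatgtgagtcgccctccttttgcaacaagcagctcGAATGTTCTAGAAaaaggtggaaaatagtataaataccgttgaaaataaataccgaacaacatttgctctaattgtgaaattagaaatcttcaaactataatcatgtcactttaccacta
Both blocks in capitals, starting at bases 27 and 181, hold both arrangements. The start of hsp-16.41, on the other strand, lies within this stretch, so the genes share it. No pooled summit fell on it.

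**Figure D1:**
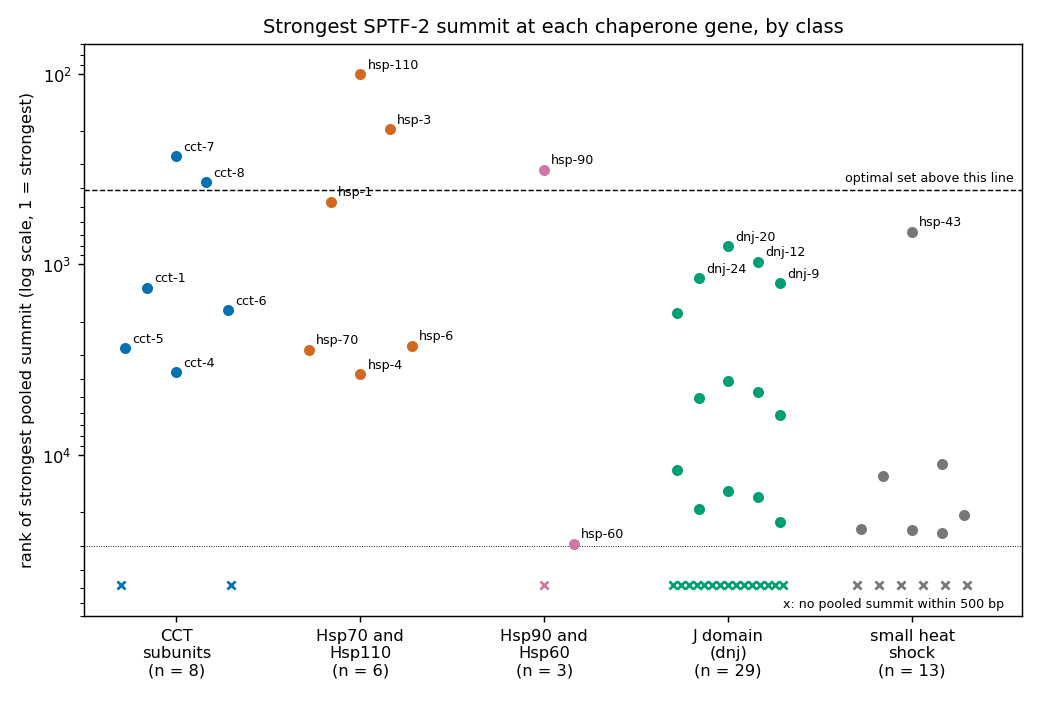
Rank of the strongest pooled summit within 500 bp of a start for each of the 59 genes, on a log axis with the strongest at the top, by class. Points are genes, crosses are genes with no such summit, and the dashed line marks rank 407, above which lie cct-7, cct-8, hsp-3, hsp-90 and hsp-110. The 6 Hsp70 and Hsp110 genes all lie at rank 3775 or better, whereas 6 of the 7 small heat shock points lie below rank 10000.

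Over all members, the share at a summit was above that of all protein-coding genes at every depth of the pooled list, and the ratio of the shares was largest in the optimal list. There were 9 members (15.3%) among the 1000 strongest pooled peaks, against 2.19% of all protein-coding genes, 17 (28.8%) among the 3000 strongest, against 5.57%, and 23 (39.0%) among the 10000 strongest, against 15.7%. In the whole pooled list there were 35 (59.3%), against 36.9%. Among those 35, which leave out the members without a summit, the median summit was at percentile 81.7 of the signal of all 7365 protein-coding genes with a pooled summit. By class the median percentile was 91.5 for CCT subunits, 91.7 for Hsp70 and Hsp110 genes, 77.0 for dnj genes and 23.8 for small heat shock genes. No test was made of these shares, since the members were proposed with results of these data in view.

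The members were also set beside the 82 genes for ribosomal proteins, a set that most cells use at high level. The median rank in the pooled list was 2247.5 over all 8 CCT subunits and 1574 over all 6 Hsp70 and Hsp110 genes, and 1820.5 over the ribosomal protein genes. Over all members 8.47% were at an optimal summit and 28.8% among the 3000 strongest pooled peaks, compared with 22.0% and 59.8% of ribosomal protein genes. The start of a tRNA, snoRNA or snRNA gene was within 500 bp of 0 of the 35 members' pooled summits, which allows a share of up to 8.57%, and of 14.9% of those of ribosomal protein genes. The figure over all protein-coding genes was 2.31%. Removing summits near such small RNA genes thus left the members' counts as they were.

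**Figure D2:**
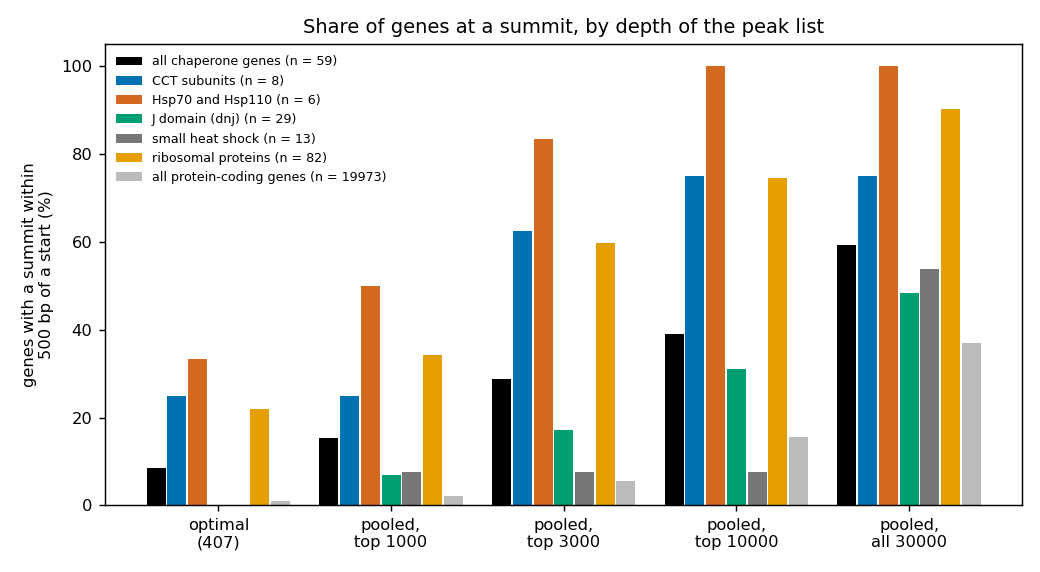
Share of genes with a summit within 500 bp of a start, in percent, for the optimal list and for the pooled list to increasing depth. Bars stand for all 59 members, 4 of their classes, ribosomal protein genes and all protein-coding genes. The Hsp70 and Hsp110 bars stand above those of ribosomal protein genes at each depth (33.3% and 22.0% in the optimal list), the CCT bars are within 10 percentage points of them except in the full pooled list (6 of 8 and 74 of 82 genes), and small heat shock genes exceed 10% only in the full pooled list.

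The replicates gave 37 members (62.7%) at a summit in replicate 1, against 36.6% of all protein-coding genes, and 33 (55.9%) in replicate 2, against 36.8%. In both lists 30 members (50.8%) were at a summit, against 21.1%. Of the 59 members, 7 were in replicate 1 alone, 3 in replicate 2 alone and 19 in neither. Over all 19973 protein-coding genes these counts were 3098, 3143 and 9516. Among the 3000 strongest peaks of both lists were 10 members (16.9%), against 1.88%. Of these, 3 were CCT subunits, 4 Hsp70 or Hsp110 genes, 1 was hsp-90 and 2 were dnj genes. At the top of each list the replicates picked partly different members. The 407 strongest peaks of replicate 1 touched 4 (hsp-110, hsp-3, hsp-90 and cct-8; 6.78%, against 0.986% of all protein-coding genes), and those of replicate 2 touched 6 (hsp-110, hsp-3, hsp-1, hsp-6, cct-7 and dnj-13; 10.2%, against 0.841%).

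As a description of how far ranks went together, Spearman's rho was 0.62 across the 30 members in both lists and 0.29 across the 4216 protein-coding genes in both. It was 0.51 across the 65 ribosomal protein genes in both, and 0.45 across the 13 dnj genes alone. Genes are not independent replicates, neighbours can share a summit, and both lists share the control alignment. The median distance between the replicates' strongest summits was 161.5 bp for the members and 140 bp for all protein-coding genes.

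**Figure D3:**
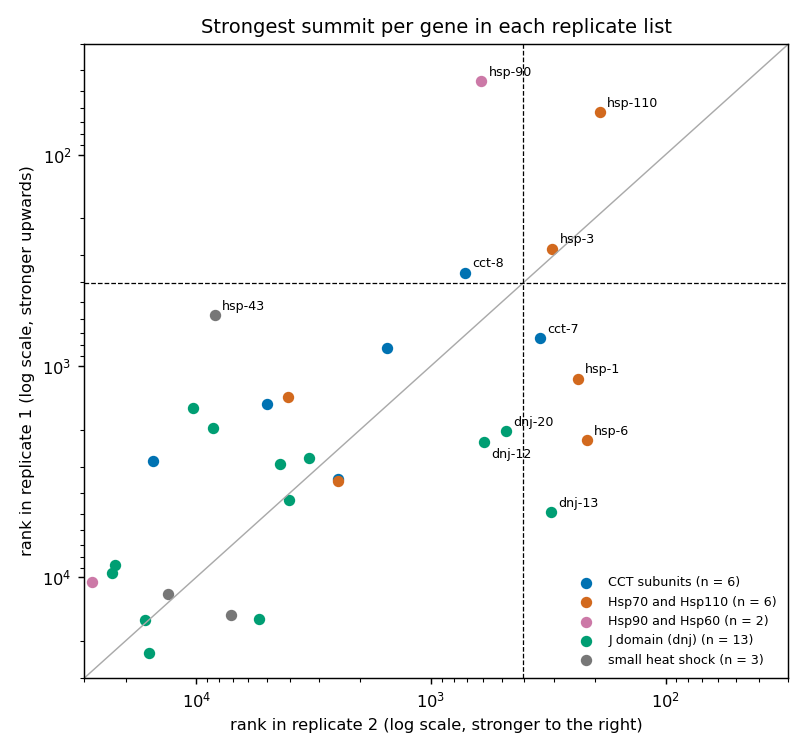
Rank of each gene's strongest summit in replicate 1 against that in replicate 2, on log axes with stronger summits up and to the right, for the 30 members with a summit in both lists. Dashed lines mark rank 407 in each list and the grey line marks equal ranks. In the upper right corner lie hsp-110 and hsp-3 alone, and cct-7, hsp-1, hsp-6 and dnj-13 are past the line in replicate 2 only.

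Along the gene, 19 of the 35 strongest pooled summits (54.3%) lay before the nearest start, compared with 49.8% over all protein-coding genes. The share was 5 of 6 for CCT subunits and 2 of 6 for Hsp70 and Hsp110 genes. Many worm messages are trans-spliced, so an annotated start can lie downstream of the promoter, and positions are read here relative to the annotation only.

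Several members also had a strong summit near their 3′ end, a pattern that was chosen for description after its values were seen. With summits within 500 bp of the gene's end and more than 500 bp from its own starts, 5 of 59 members were at an optimal summit, against 0.521% of all protein-coding genes, and 14 of 59 (23.7%) at one of the 3000 strongest pooled summits, against 3.79%. Ribosomal protein genes had 2 of 82 (2.44%) at the optimal and 19 of 82 (23.2%) at the 3000 strongest, so at the 3000 strongest the shares were nearly equal. Some of these summits had another gene's start close by. At dnj-16 (rank 275) the start of xbp-1, which encodes a transcription factor of the unfolded protein response, was 70 bp away. At hsp-90 (rank 343) the start of C47E8.11 was 10 bp away, and at hsp-110 (rank 1346) that of ufbp-1 was 235 bp away. At dnj-13 (rank 1087) that of F54D5.7 was 8 bp away. Small RNA gene starts also lay within 500 bp, of an snRNA gene at hsp-12.3 (rank 156). They were of tRNA genes at dnj-5 (rank 531) and hsp-70 (rank 691). At hsp-3 (rank 359) the summit lay in the gene's own untranslated exon with no other start within 500 bp. At hsp-16.41 (rank 347) it was intergenic, 414 bp beyond the gene's end, with no other start within 500 bp. Thus hsp-3 and hsp-90 carried optimal summits near both a start and their end.

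**Figure D4:**
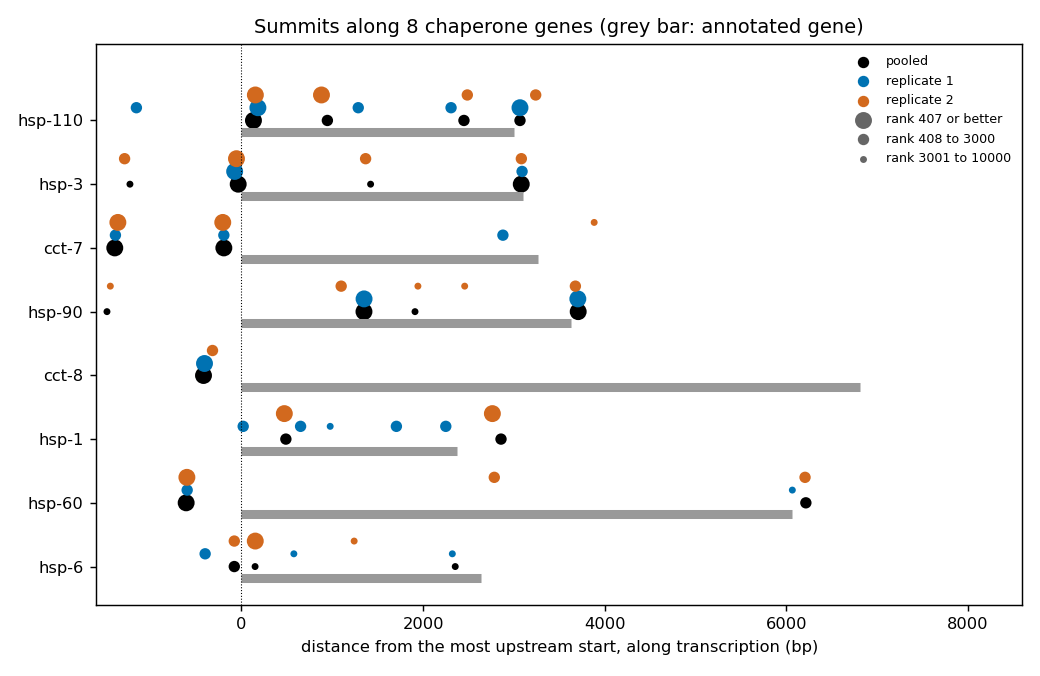
Summits of rank 10000 or better along 8 members, as distance in bp from the most upstream annotated start in the direction of transcription, with the annotated gene as a grey bar. Black, blue and orange points are the pooled, replicate 1 and replicate 2 lists, and larger points are stronger ranks. The hsp-60 peak stands before the gene, the hsp-90 peak at the second start inside it, and hsp-3 and hsp-90 have a second strong summit near the end.

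Motifs were counted on both strands in the 201 bases centred on each strongest pooled summit (35 members, 7365 protein-coding genes) and in start regions of 300 bases (59 members, 19973 protein-coding genes). The core of the GC box, GGGCGG, was in 3 member summit windows (8.57%), those of hsp-43, hsp-12.2 and dnj-24, compared with 6.06% of all windows of that kind. It was in none of the 5 members at an optimal summit, whereas 25 of the 187 protein-coding genes at an optimal summit (13.4%) had it. In start regions it was in 3 of 59 members (5.08%) and in 7.81% of all protein-coding genes. The CACC box, CACCC, was in 8 summit windows (22.9%), compared with 15.6%, and the GA repeat, GAGAGA, in 5 (14.3%), compared with 16.2%.

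The heat shock element was counted in both its arrangements. Either GAANNTTC or TTCNNGAA, which each read the same on both strands and can overlap, was in 12 of 35 summit windows (34.3%), compared with 19.6% of all protein-coding genes' windows. By class it was in 5 of 6 CCT windows, 0 of 6 Hsp70 and Hsp110 windows, 6 of 14 dnj windows and 1 of 7 small heat shock windows. In start regions either arrangement was in 28 of 59 members (47.5%), compared with 32.5% of all protein-coding genes, and here 4 of 6 Hsp70 and Hsp110 genes (hsp-1, hsp-110, hsp-4 and hsp-70), 7 of 8 CCT subunits and 7 of 13 small heat shock genes had it. At those 4 Hsp70 and Hsp110 genes the arrangement thus stood in the start region but not within 100 bp of the strongest summit, while hsp-3 and hsp-6 had it in neither window. Genes for ribosomal proteins had either arrangement in 24 of 74 summit windows (32.4%) and in 39.0% of start regions, so the members' share at summits was near that of this other set. The hsp-16.1 and hsp-16.48 copies share start regions in pairs, so those counts are not independent. Among the 5 members at an optimal summit, 4 of 5 start regions held an arrangement, compared with 30.5% of the 187 protein-coding genes at an optimal summit. The sequence TATAAA, also counted, was likewise in 4 of 5, compared with 24.6%. The summits of cct-8, hsp-110 and hsp-90 lay outside these start regions. At the summits themselves 2 of 5 windows held an arrangement, compared with 22.5%. A match describes letters only and says nothing of which factor was bound.

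**Figure D5:**
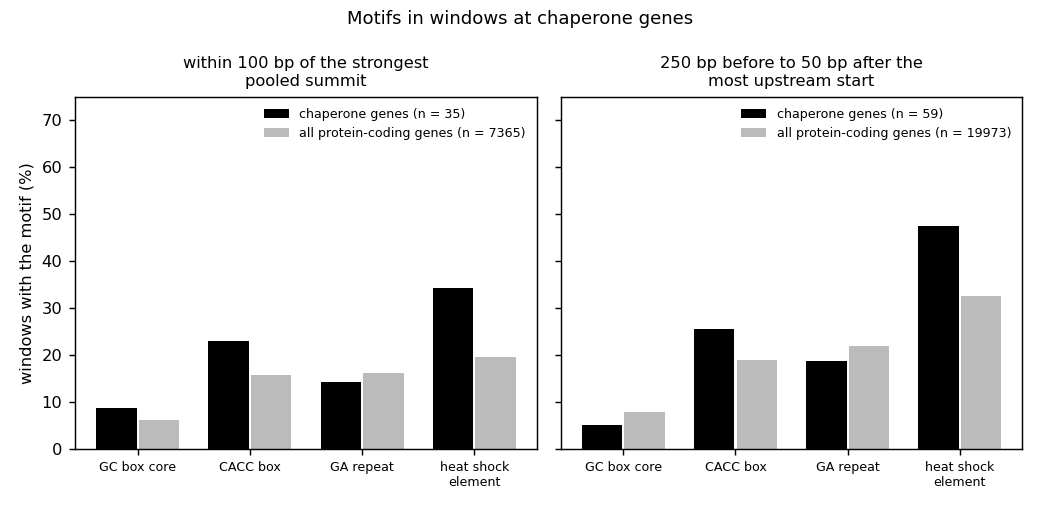
Share of windows, in percent, that hold each motif, for member genes (black) and all protein-coding genes (grey), at the strongest pooled summits and in start regions. The heat shock element bars, counting either arrangement, stand at 34.3% and 19.6% at summits and at 47.5% and 32.5% in start regions.

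The separate list of 26 genes held ahsa-1, bag-1, cdc-37, chn-1, chp-1, daf-41, ddl-1, enpl-1, fkb-6, hip-1, hsb-1, hsf-1, pfd-1 to pfd-6, pph-5, sgt-1, sip-1, stc-1, sti-1, trap-1, unc-23 and unc-45. Not all are chaperones or cochaperones, since hsf-1, hsb-1 and ddl-1 belong to the heat shock factor and its regulators, and the identity of trap-1 as a chaperone in the worm is uncertain. The list gave 2 genes at an optimal summit (7.69%), against 0.936% of all protein-coding genes. Among the 3000 strongest pooled peaks were 4 (15.4%), against 5.57%, and in the pooled list 19 (73.1%), against 36.9%. The optimal ones were ahsa-1, which encodes an activator of the Hsp90 ATPase (rank 238, signal 103.3, 209 bp before the start, rank 312 in replicate 1 and 442 in replicate 2), and bag-1, which encodes a nucleotide exchange factor for Hsp70 (rank 323, signal 95.9, 108 bp before the start, rank 567 in replicate 1 and 458 in replicate 2). Just below the optimal list was enpl-1, which encodes the Hsp90 protein of the endoplasmic reticulum (rank 425, signal 89.9, 50 bp before the start). Its ranks were 655 in replicate 1 and 949 in replicate 2. The ahsa-1 summit also had the start of C01G10.7 within 500 bp, and the enpl-1 summit that of imp-2. For these pairs the lists cannot say which gene the binding belongs to. The gene of the heat shock factor itself, hsf-1, had no summit within 500 bp of a start in the pooled list or in either replicate list.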

How the data were processed

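The deposited files used were 4 peak lists in narrowPeak format on ce11, the same assembly as WBcel235. Per the deposited file descriptions, each list was called against a control, for 1 replicate or for both pooled, and the optimal list came from a threshold on rank agreement between replicates (IDR). The authors' signal value per peak is in the caller's units. The deposited −log10 q value was converted to q. Aligner, caller and versions were not given in the sources used here. Fragments of 200 to 800 bp were taken, per the labels. Peaks had nearly 1 width per list (most often 376 bp in the pooled list), so a summit is mostly the middle of a peak.

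From these, the strongest summit within 500 bp of any protein-coding start (Ensembl release 115, 29304 distinct starts) was taken for each gene, in each list, with Python 3.11.15, pandas 2.3.3 and scipy 1.17.1. The assignment was tested on simulated data with planted summits. Summits were ranked within a list, and no p-values were computed. Start regions were read from the RefSeq genome at the most upstream Ensembl start. Named genes were those at an optimal summit, all cct, Hsp70, Hsp110, Hsp90 and Hsp60 genes, the 12 members of highest pooled signal and the 3 below them, neighbours sharing their summits, and cochaperones at an optimal summit or among the 3 strongest. Other names were chosen after their values were seen. The members and lists were chosen with earlier results of these data known. Alternatives were other windows, starts, list depths and each replicate alone.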

Additional observations from a re-analysis of the deposited data

How the results depend on the processing

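The 5 members at an optimal summit became 2 (hsp-110 and hsp-3) in the stronger part of the optimal peaks, divided at their median signal. They became 4 with a 250 bp window (without cct-8) or the most upstream start (without hsp-90), 7 with a 1000 bp window (with hsp-60 and hsp-12.3) and 6 with any part of the peak in the window. Taking 407 peaks from 1 replicate alone gave 4 to 6 members. The 35 members at a pooled summit became 23 with a 250 bp window, 23 in the 10000 strongest peaks and 17 in the 3000 strongest, and 33 to 37 in 1 replicate alone. The 30 members in both replicate lists became 15 with a 250 bp window. The median percentile of 81.7 was 77.5 with a 250 bp window and 79.9 to 85.1 in 1 replicate alone. GGGCGG was in 3 windows, in 0 with 50 bp either side of the summit and in 4 with 150 bp. The causes of these shifts were not tested. The other alternatives run moved counts by at most 1.5 times. No paired analysis was possible because there was 1 group. Depth was unknown, and peaks deep in the lists had high q values.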
